A study of Homo sapiens with 6 samples.

Results

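The 8 genes whose proteins recognise double-stranded RNA (dsRNA), or pass that signal on, were examined in A549 cells after silencing of NME2. The members are RIGI, IFIH1, DHX58, TLR3, MAVS, EIF2AK2, ADAR and PRKRA, and they were chosen by name as a check on a response to the siRNA duplex. All 20 probe sets that the platform annotation assigns to 1 of these 8 genes were taken, of 54613 probe sets for 19775 genes and unnamed transcripts. Each probe set combines several short oligonucleotides designed to read a transcript or a few similar ones. A549 is a human lung adenocarcinoma line. The 3 arrays of NME2-depleted cells came from cells transfected with siRNA against NME2, and the 3 control arrays from cells transfected with control siRNA duplexes. By the series text, silencing was transient and cells of both groups received duplex RNA. Arrays of cells that received none were not analysed here. These data thus set siRNA against NME2 beside control siRNA and give no level without transfection. The sources used here give neither dose nor time after transfection, and the series text and the methods of the paper name different suppliers of the siRNA. The paper also describes a stable NME2-depleted A549 line made with short hairpin RNA, and the array titles say only that cells were depleted. Arrays within a group are called biological replicates without a description of separate cultures, so each p-value rests on the spread among these 6 arrays alone, and in bulk RNA fewer expressing cells and less RNA per cell cannot be told apart.

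Long dsRNA is rare in healthy cytoplasm and is read as a sign of viral replication. RIG-I (RIGI) and MDA5 (IFIH1) are cytosolic helicases that bind dsRNA and then engage the mitochondrial adaptor MAVS, whereas LGP2 (DHX58) is a related helicase without the signalling domains. TLR3 reads dsRNA in endosomes, PKR (EIF2AK2) halts translation by phosphorylating eIF2alpha, PACT (PRKRA) binds and activates PKR, and ADAR edits adenosine to inosine in dsRNA. Transcripts of RIGI, IFIH1, DHX58, TLR3, EIF2AK2 and the long form of ADAR are known to be induced by interferon, so these genes are both sensors and targets of the response they start.

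The letters that precede 4 of these genes are shown. In 3 of them, IFIH1, TLR3 and EIF2AK2, strings match the core of the element through which interferon is known to act on transcription. The RIGI window did not hold that core and is shown for a variant of it. RefSeq windows (GRCh38.p14) of 250 bases before to 20 bases after the start site were searched on both strands for GAAANNGAAA, the core of the interferon-stimulated response element. Windows were found for 7 of the 8 genes, 11 windows in all, and DHX58 had none. Matches lay in 3 of the 11 windows, those of IFIH1, TLR3 and EIF2AK2, against 3.3% of 35116 windows of all genes. A form with 1 spacer base, GAAANGAAA, was added after the RIGI window had been read, so its match there was known beforehand. It was found in that window alone among the members and in 2.9% of all windows. The forms can overlap each other, and no printed window held both. Capitals mark the matches, 5′ to 3′ on the strand of the gene:
RIGI, chr9:32526177-32526446, minus strand: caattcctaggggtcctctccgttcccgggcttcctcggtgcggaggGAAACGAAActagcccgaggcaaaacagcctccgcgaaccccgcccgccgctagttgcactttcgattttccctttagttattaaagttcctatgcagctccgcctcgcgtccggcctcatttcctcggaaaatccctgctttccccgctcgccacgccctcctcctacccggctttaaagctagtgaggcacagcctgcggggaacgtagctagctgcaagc
IFIH1, chr2:162318665-162318934, minus strand: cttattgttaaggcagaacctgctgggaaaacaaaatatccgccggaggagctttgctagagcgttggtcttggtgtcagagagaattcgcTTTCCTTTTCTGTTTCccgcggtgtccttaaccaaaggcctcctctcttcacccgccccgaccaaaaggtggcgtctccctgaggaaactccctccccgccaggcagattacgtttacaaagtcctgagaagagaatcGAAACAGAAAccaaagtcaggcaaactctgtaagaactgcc
EIF2AK2, chr2:37156961-37157230, minus strand: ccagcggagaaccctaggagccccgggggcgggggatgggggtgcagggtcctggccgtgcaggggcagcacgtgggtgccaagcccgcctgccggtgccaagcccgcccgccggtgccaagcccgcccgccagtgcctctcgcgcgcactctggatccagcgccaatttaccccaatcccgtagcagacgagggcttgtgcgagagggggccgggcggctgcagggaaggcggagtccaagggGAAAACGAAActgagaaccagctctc
TLR3, chr4:186068906-186069175, plus strand: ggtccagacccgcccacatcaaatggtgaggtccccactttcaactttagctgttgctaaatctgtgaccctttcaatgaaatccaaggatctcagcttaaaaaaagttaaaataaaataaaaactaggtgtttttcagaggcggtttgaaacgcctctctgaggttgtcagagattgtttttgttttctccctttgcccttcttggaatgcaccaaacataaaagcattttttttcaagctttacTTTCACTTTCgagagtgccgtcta
A match is a string of letters and not a measured binding site. The windows of MAVS, and the 3 windows each of PRKRA and ADAR, held neither string.

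The labels were checked first. The NME2 probe set had signals of 1920, 3676 and 3216 in NME2-depleted cells, against 17862, 19389 and 21044 in control cells, a log2 difference of -2.78 (SE 0.19, limma adjusted p = 0.00032). Here and below, a difference is the mean log2 signal of depleted arrays minus that of control arrays. All 6 epithelial markers were measured and 0 passed the test, with KRT18 at 27676 to 31232 in NME2-depleted cells and 28232 to 32107 in control cells. Of the others, EPCAM (log2 difference 0.71, limma adjusted p = 0.0884) and CDH1 (0.21, 0.324) were higher in depleted cells without overlap, and KRT8 (-0.24, 0.209) lower without overlap. Of 13 leukocyte markers with a probe set 4 lay above the filter on dim probe sets, a mean signal of 71.7. These were CD14, CD53, CD3E and LAPTM5. CD14 had signals from 191.9 to 305.9 in NME2-depleted cells and from 273.4 to 349.5 in control cells. CD53 had 79.4 to 130.3 in NME2-depleted cells and 94.3 to 186.5 in control cells, and CD3E and LAPTM5 were dimmer. PTPRC, the pan-leukocyte phosphatase, lay under the filter, with 4.9 to 25.5 in NME2-depleted cells and 12.3 to 23.7 in control cells. Summed leukocyte marker signals were 702.2 to 909.2 in NME2-depleted cells and 818.5 to 1025 in control cells. The ratio of 3′ to 5′ signal of ACTB, a sign of RNA quality, was 1.326 to 1.396 in NME2-depleted arrays and 1.198 to 1.305 in control arrays, with the lowest value in control replicate 1. The same ratio of GAPDH overlapped, at 0.985 to 1.064 in NME2-depleted arrays and 0.970 to 1.021 in control arrays. The ACTB ratio thus moved with the groups, and its part in the results was not tested. The control array labelled replicate 1 stood apart from control replicates 2 and 3 in the signals of many interferon-induced genes, and results are given with and without it.

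None of the 8 genes passed an adjusted p of 0.05. Of their 20 probe sets 16 passed the filter, which measured 7 genes, and adjusted p-values ranged from 0.0884 to 0.896. Over all tested genes 0.395% were called lower and 0.145% higher, so 0 of 7 does not stand apart from the background. At an unadjusted p under 0.05, 6 of the 16 probe sets were lower (3 of RIGI, 2 of EIF2AK2 and that of ADAR) and 1, of MAVS, was higher. The corresponding shares of all tested probe sets were 6.42% lower and 6.48% higher. The groups did not overlap for 5 probe sets that were lower in NME2-depleted cells and for 2 that were higher, where the shares over all tested probe sets were 8.91% and 9.66%. By the brightest probe set of each gene, 6 of 7 genes were lower on average in NME2-depleted cells, and the median of the 7 log2 differences was -0.39, beside 0.001 over all 12406 tested genes. For 3 of the 7 the groups did not overlap with the depleted arrays lower, against 10.1% of all genes.

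**Figure D1:**
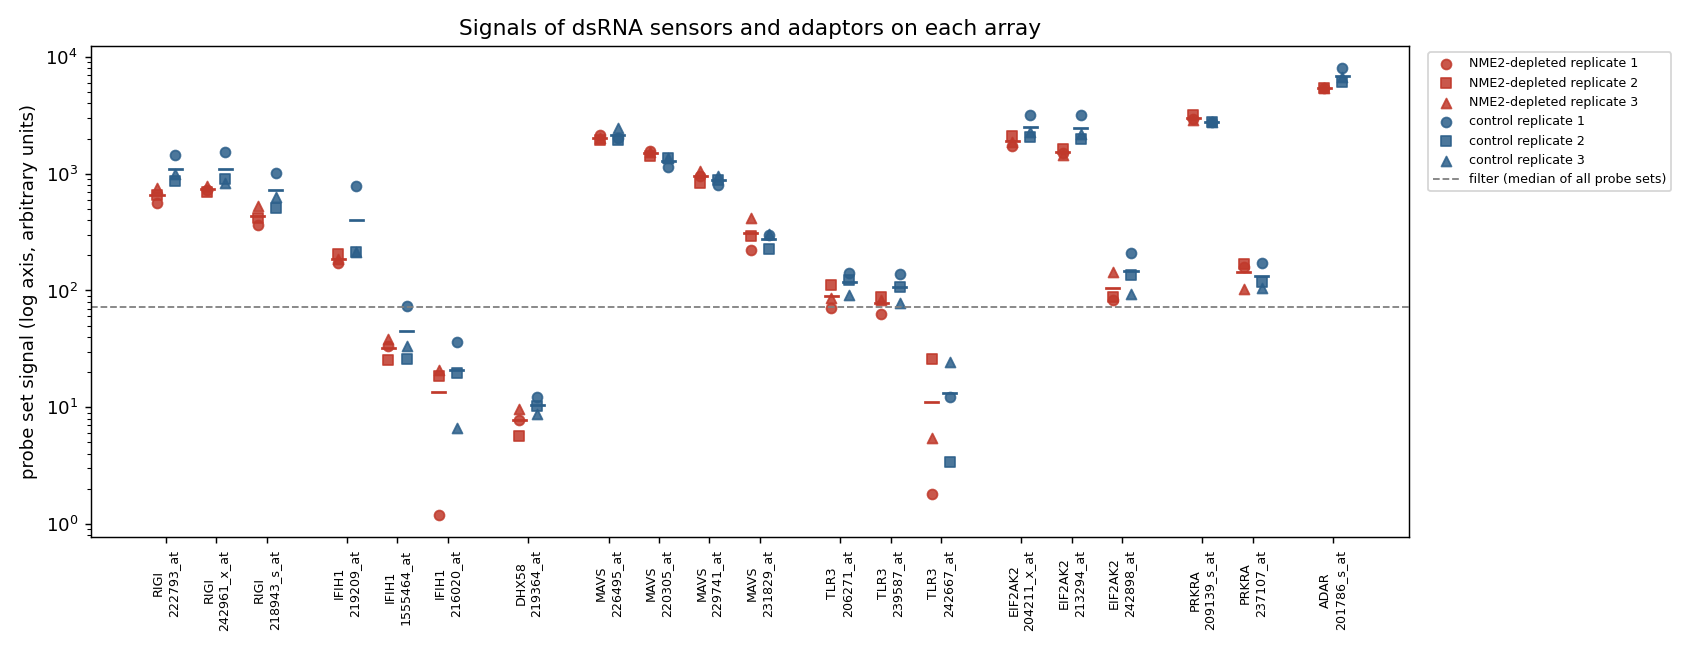
Signals of all 20 probe sets of the dsRNA sensors and adaptors. Signal is plotted upwards on a log scale, each point is an array (red, NME2-depleted; blue, control), short bars are means of 3 arrays, and the dashed line is the filter at 71.7. Control replicate 1 (blue circles) is the highest of the 6 arrays in 11 of the 16 tested probe sets, and all 10 tested probe sets of RIGI, IFIH1, TLR3, EIF2AK2 and ADAR have a lower red bar than blue bar.

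RIGI, the cytosolic receptor for short dsRNA with a 5′ triphosphate, was measured by 3 probe sets. For 222793_at, signals were 565.5, 662.3 and 753.9 in NME2-depleted cells, against 1454, 861.2 and 989.6 in control cells. The 2 groups did not overlap, although the highest depleted array lay close to the lowest control array. The log2 difference was -0.71 (SE 0.18, 95% interval -1.10 to -0.32, limma adjusted p = 0.117), a signal 1.64-fold higher in control cells. The brightest probe set, 242961_x_at, had 724.8, 703.0 and 785.3 in NME2-depleted cells and 1545, 908.8 and 836.2 in control cells, also without overlap, with a difference of -0.52 (SE 0.19, adjusted p = 0.284). The suffix x marks probe sets in which some probes can also match other transcripts. In 218943_s_at, at 361.5, 415.6 and 530.1 in NME2-depleted cells and 1020, 511.1 and 631.9 in control cells, NME2-depleted replicate 3 was above control replicate 2, and the difference was -0.68 (SE 0.23, adjusted p = 0.237). The 3 probe sets thus gave similar sizes, and all had their highest value in control replicate 1. Without that array their differences were -0.49, -0.24 and -0.40 (adjusted p = 0.2, 0.436 and 0.412), in the order in which they are described here.

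IFIH1, the receptor for long dsRNA, showed the largest difference of a measured member and the widest spread. Signals of 219209_at were 170.7, 203.3 and 186.1 in NME2-depleted cells, against 781.9, 213.0 and 212.3 in control cells. Control replicate 1 was 3.68-fold above the other control arrays, which themselves lay only slightly above the highest depleted array. The log2 difference was -0.82 (SE 0.41, 95% interval -1.71 to 0.08, limma adjusted p = 0.43), and without control replicate 1 it was -0.19 (adjusted p = 0.766). The 2 other probe sets were dim. 1555464_at had 33.2, 25.6 and 38.5 in NME2-depleted cells and 74.3, 25.8 and 33.5 in control cells, and 216020_at had 1.2, 18.7 and 20.7 in NME2-depleted cells and 36.2, 19.8 and 6.6 in control cells. Both lay under the filter and their groups overlapped, and both were highest in control replicate 1.

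DHX58, the helicase that modulates the other RIG-I-like receptors, was at the bottom of the measured range. Its single probe set, 219364_at, had 7.8, 5.7 and 9.7 in NME2-depleted cells and 12.2, 10.2 and 8.8 in control cells. These signals are at the 10.9th percentile of all probe sets, and detection calls were not used, so the transcript cannot be called absent. Without a filter on dim probe sets its difference was -0.45 (limma adjusted p = 0.91).

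MAVS, the adaptor through which both signalling helicases act, was close to equal in the groups. Its brightest probe set, 226495_at, had 2134, 1941 and 2033 in NME2-depleted cells and 2025, 1930 and 2480 in control cells. The arrays of the groups were interleaved, with a difference of -0.07 (SE 0.10, limma adjusted p = 0.824), and the 95% interval of -0.29 to 0.15 does not reach 2-fold in either direction. The other 3 probe sets had differences above 0. For 220305_at, at 1577, 1412 and 1540 in NME2-depleted cells and 1149, 1371 and 1364 in control cells, the groups did not overlap and the difference was 0.23 (SE 0.10, adjusted p = 0.361). 229741_at and 231829_at had differences of 0.11 and 0.13 (adjusted p = 0.737 and 0.849) with overlapping groups.

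TLR3, the endosomal receptor for dsRNA, was dim, and its groups overlapped. Signals of 206271_at were 70.6, 110.5 and 87.0 in NME2-depleted cells and 140.0, 122.9 and 91.7 in control cells. NME2-depleted replicate 2 was above control replicate 3, and the log2 difference was -0.41 (SE 0.28, 95% interval -1.02 to 0.21, limma adjusted p = 0.592). Signals of 239587_at were 62.8, 87.7 and 83.1 in NME2-depleted cells and 138.8, 106.9 and 78.6 in control cells, a difference of -0.45 (SE 0.30, adjusted p = 0.575). The last probe set, 242667_at, had 1.8 to 25.9 in NME2-depleted cells and 3.4 to 24.5 in control cells, under the filter. With intervals this wide, a decrease of up to 2-fold in TLR3 could not be told from no change.

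EIF2AK2, the dsRNA-dependent kinase PKR, held the lowest p of all members. Signals of 213294_at were 1512, 1613 and 1443 in NME2-depleted cells, against 3198, 1996 and 2193 in control cells. All 3 depleted arrays lay below all 3 control arrays, and the depleted arrays were close to each other. The log2 difference was -0.66 (SE 0.15, 95% interval -0.99 to -0.34, limma adjusted p = 0.0884), 1.58-fold higher in control cells. Without control replicate 1 it was -0.46 (adjusted p = 0.0867). The brightest probe set, 204211_x_at, had 1718, 2094 and 1857 in NME2-depleted cells and 3179, 2076 and 2280 in control cells. Here NME2-depleted replicate 2 was slightly above control replicate 2, and the difference of -0.39 (SE 0.14, adjusted p = 0.274) was -0.21 without control replicate 1 (adjusted p = 0.461). The dim 242898_at, at 83.3, 88.4 and 143.3 in NME2-depleted cells and 211.3, 134.9 and 94.2 in control cells, overlapped and had a difference of -0.45 (SE 0.33, adjusted p = 0.615).

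PRKRA, the protein activator of PKR, did not share this direction. Its bright probe set, 209139_s_at, had 2916, 3190 and 2872 in NME2-depleted cells, against 2788, 2797 and 2745 in control cells. The groups did not overlap, but the difference was small, at 0.11 (SE 0.07, 95% interval -0.05 to 0.27, limma adjusted p = 0.584). The dimmer 237107_at, at 159.8, 167.3 and 103.2 in NME2-depleted cells and 172.2, 119.2 and 105.0 in control cells, overlapped (difference 0.12, adjusted p = 0.896).

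ADAR, the editing enzyme, was the brightest member. Signals of 201786_s_at were 5393, 5384 and 5436 in NME2-depleted cells, against 7997, 6092 and 6686 in control cells. The depleted arrays lay within a very narrow range and below every control array. The log2 difference was -0.35 (SE 0.09, 95% interval -0.55 to -0.15, limma adjusted p = 0.135), 1.27-fold higher in control cells, and without control replicate 1 it was -0.24 (adjusted p = 0.243). The annotation does not say whether this probe set reads the interferon-induced long form, the constitutive short form or both.

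**Figure D2:**
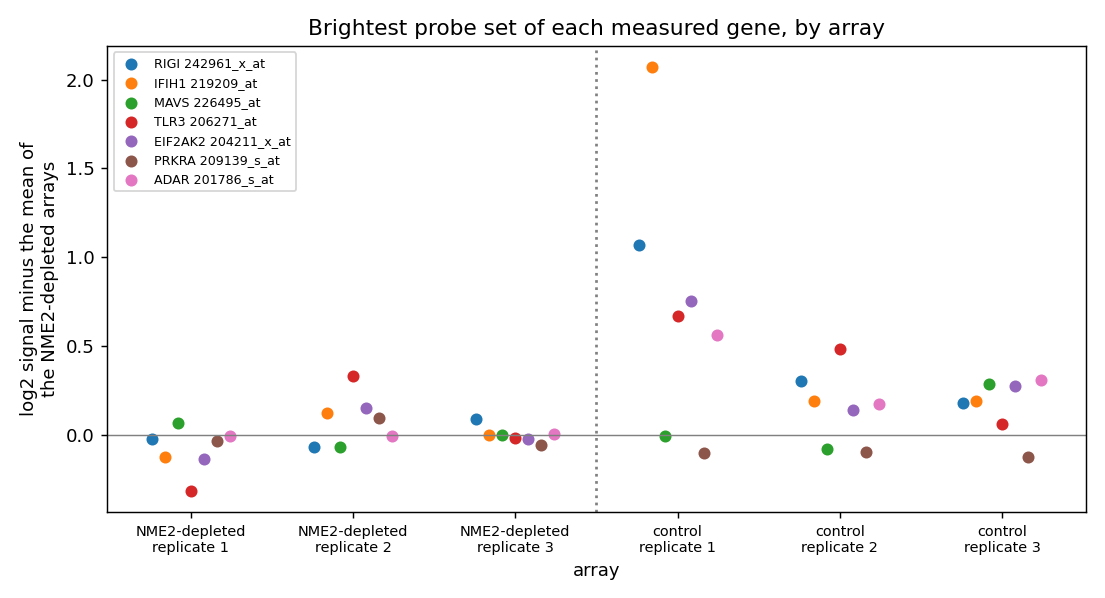
Brightest probe set of each of the 7 measured genes, array by array. Plotted upwards is log2 signal minus the mean of the 3 NME2-depleted arrays, and each colour is a gene. IFIH1 and RIGI are highest in control replicate 1, at 3.68-fold and 1.77-fold the mean of control replicates 2 and 3. TLR3, EIF2AK2 and ADAR are also highest in that array, by less, MAVS in control replicate 3 and PRKRA in NME2-depleted replicate 2.

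By the SD of the signals, RIGI, IFIH1, EIF2AK2 and ADAR varied more between control arrays than between depleted arrays. So did MAVS 226495_at (SD 294 in control cells, 96.47 in NME2-depleted cells) and, by less, TLR3 206271_at (24.49 and 20.06). MAVS 229741_at and 231829_at and the bright PRKRA probe set varied more between depleted arrays. Control replicate 1 was the highest of the 6 arrays for 11 of the 16 tested probe sets, where it was the highest for 15.8% of all tested probe sets. In the 7 measured genes the median log2 excess of control replicate 1 over control replicates 2 and 3 was 0.40, beside -0.014 over all tested genes. All 10 tested probe sets of RIGI, IFIH1, TLR3, EIF2AK2 and ADAR averaged lower in NME2-depleted cells, whereas 5 of the 6 probe sets of MAVS and PRKRA had a higher mean. The difference between these sets of genes was not tested. Without control replicate 1 the median of the 7 genes was -0.21, and all 3 depleted arrays were below control replicates 2 and 3 in 5 of the 16 probe sets, against 14.1% of all tested probe sets.

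**Figure D3:**
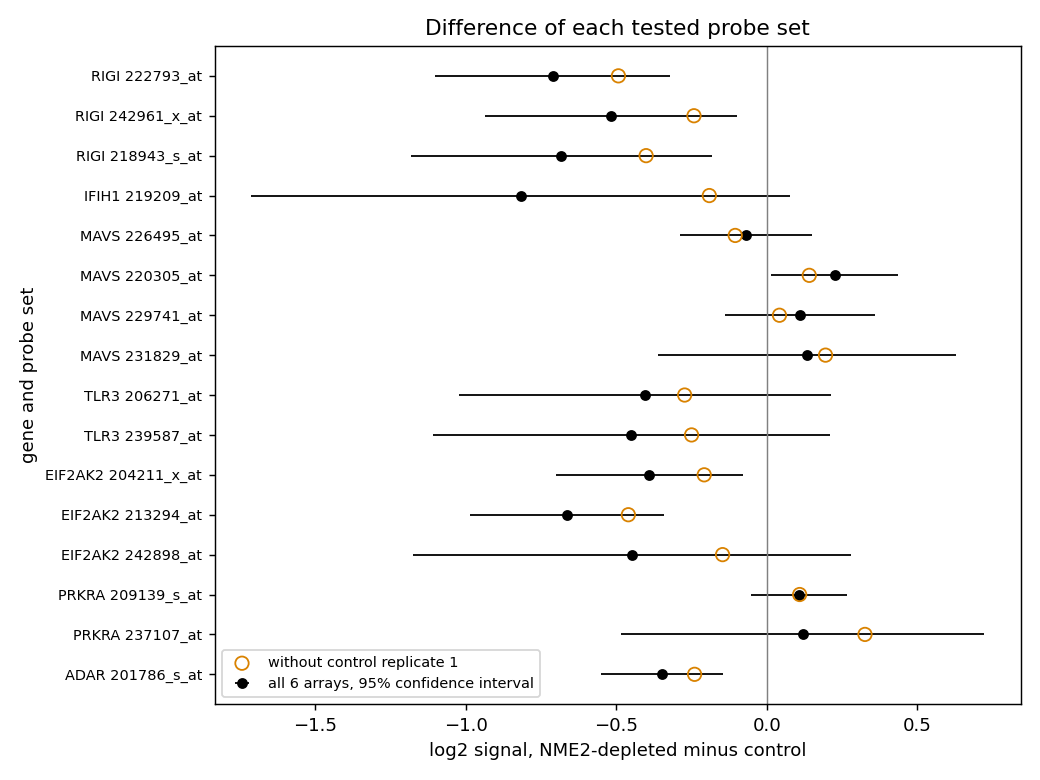
Log2 difference, NME2-depleted minus control, of the 16 tested probe sets. Filled points use all 6 arrays with 95% confidence intervals from limma, and open circles leave out control replicate 1. Every probe set of RIGI, IFIH1, TLR3, EIF2AK2 and ADAR lies left of 0 in both settings, IFIH1 at -0.82 with all arrays and -0.19 without that array.

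EIF2AK2 was also set against all measured genes by its profile over the arrays. Over the 6 arrays, which fall into 2 groups, Pearson correlations with 213294_at were highest for TRIM14 (0.997), MX1 (0.995), HERC6 (0.993), P3H2 (0.992) and CEMIP (0.992). That probe set was chosen for its low p between the groups, so genes that separate the groups alike rank high. All 5 genes were lower in depleted cells without overlap and highest in control replicate 1. The correlations were not tested and do not link these genes to PKR. TRIM14 encodes an adaptor that associates with MAVS, MX1 an antiviral GTPase, HERC6 a HECT-type ubiquitin ligase related to HERC5, P3H2 a collagen prolyl hydroxylase, and CEMIP a hyaluronan-degrading protein. TRIM14 had signals of 355.2, 364.9 and 315.1 in NME2-depleted cells, against 1664, 633.4 and 710.4 in control cells (log2 difference -1.40, SE 0.29, limma adjusted p = 0.065). Of these 5 genes, MX1 alone passed the threshold (adjusted p = 0.0379).

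Proteins that regulate RIG-I and MDA5, or unwind RNA beside them, were nearly balanced. Of 24 measured genes 0 passed in either direction, 13 had a lower and 11 a higher mean, and the median log2 difference was -0.015. CYLD, a deubiquitinase that restrains RIG-I, had a difference of -0.40 (limma adjusted p = 0.384), LRRFIP1 0.15 (0.393) and MEX3C, a ubiquitin ligase, 0.19 (0.425). With all probe sets of a gene averaged CYLD was at -0.06 (0.914), and with probe sets shared between transcripts left out LRRFIP1 was at 0.64 (0.486). DDX60, an interferon-induced helicase, had signals of 184.5, 214.0 and 212.9 in NME2-depleted cells, against 1096, 230.3 and 232.0 in control cells. Its difference of -0.93 (adjusted p = 0.438) thus came with 1 high control array, and was -0.19 without control replicate 1.

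Signalling below MAVS and TLR3 also held no called gene among 26 measured, with 18 lower and 8 higher means and a median of -0.057. The exception in size was IRF7, the interferon-induced transcription factor that amplifies interferon production. It had signals of 306.4, 470.1 and 380.2 in NME2-depleted cells, against 1559, 598.0 and 698.5 in control cells, without overlap. The log2 difference was -1.19 (SE 0.30, limma adjusted p = 0.117), and -0.77 without control replicate 1 (adjusted p = 0.132). IRF3, the constitutive factor that acts first, had a smaller difference of -0.22 (adjusted p = 0.289), MAP3K7, the kinase TAK1, -0.39 (0.155), and CHUK, an I-kappa-B kinase, 0.22 (0.352).

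The eIF2 arm downstream of PKR had 18 measured genes, of which 0 passed, with 10 lower and 8 higher means and a median of -0.007. DNAJC3, an inhibitor of PKR, had a difference of 0.20 (limma adjusted p = 0.296), PPP1R15B, which directs dephosphorylation of eIF2alpha, 0.19 (0.323), the amino acid-sensing kinase EIF2AK4 0.22 (0.401) and NCK1 0.18 (0.423). All differences in this list lay between -0.17 and 0.22. Phosphorylation itself is not measured by these arrays. Other dsRNA-binding proteins were alike in extent, with 0 of 18 passing, a median of -0.037, and differences of -0.17 for STRBP, -0.23 for DICER1, -0.11 for TARBP2 and 0.22 for SIDT2 (adjusted p from 0.441 to 0.723).

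Products that dsRNA sensing induces were measured in part. Of 28 interferon and cytokine genes with a probe set 15 were measured and 0 passed. A lower mean was found for 11 and a higher one for 4, and the median was -0.11. Without control replicate 1 the median was 0.023, on the other side of 0. ATF3, a stress-induced factor, had a difference of -0.29 (limma adjusted p = 0.278), IL6 -0.65 (0.359), CXCL1 -0.64 (0.424) and PMAIP1, a pro-apoptotic target of IRF3, 0.18 (0.361). CXCL1 had 752.8, 795.0 and 641.2 in NME2-depleted cells and 2229, 810.3 and 795.4 in control cells, again with control replicate 1 far above the rest. Without that array CXCL1 was at -0.14 and IL6 at -0.37. In this list control replicate 1 was the highest array for 10 of 15 genes.

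The interferon IFNE was measured, at 167.0, 136.1 and 139.7 in NME2-depleted cells and 75.5, 160.2 and 139.7 in control cells, with overlapping groups (difference 0.30, limma adjusted p = 0.715). IFNB1 and IFNL1 lay under the filter. IFNB1, encoding interferon beta, had signals of 23.4, 40.7 and 22.2 in NME2-depleted cells, against 4.4, 8.9 and 5.6 in control cells. The depleted arrays were above the control arrays, which is opposite in direction to MX1 and IRF9, but all values lay at or below 40.7, under the median probe set, and without a filter the difference of 2.20 did not pass (limma adjusted p = 0.39). IFNA1, also under the filter, had 19.7, 17.3 and 28.7 in NME2-depleted cells and 3.6, 12.9 and 3.8 in control cells. It too was higher without overlap, and without a filter its difference of 1.93 did not pass (limma adjusted p = 0.521). IFNA2 and IFNL2, likewise dim, had lower means with overlapping groups (differences -0.35 and -0.80). IFNL1, encoding interferon lambda 1, had 76.1, 65.2 and 59.9 in NME2-depleted cells and 91.7, 27.3 and 89.9 in control cells. The chemokine CXCL10 had 41.4, 27.7 and 42.3 in NME2-depleted cells and 65.4, 77.4 and 30.5 in control cells, and CCL5 had 48.9, 73.5 and 74.2 in NME2-depleted cells and 117.8, 44.6 and 58.7 in control cells. IFNL1, CXCL10 and CCL5 overlapped between the groups.

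The list of receptors for single-stranded RNA and for DNA also held adaptors and other Toll-like receptor genes. Of its 12 genes with a probe set 5 were measured (IFI16, CGAS, MYD88, IRAK1 and LY96), and 0 passed. TLR7 and TLR8, which can read single strands of siRNA in immune cells, lay under the filter and were not tested. Their signals were 9.5 to 61.4 and 29.8 to 48.5 in NME2-depleted cells and 10.7 to 45.7 and 19.7 to 39.2 in control cells. IFI16, a DNA sensor, had a difference of -0.33 (limma adjusted p = 0.382), CGAS -0.12 (0.875), MYD88, the adaptor of most Toll-like receptors, -0.20 (0.554), IRAK1 -0.06 (0.793) and LY96 -0.19 (0.855). AIM2 and TLR4, under the filter, were lower without overlap. Without a filter their differences of -2.08 and -0.54 did not pass (limma adjusted p = 0.385 and 0.741). Under the filter too, TLR9 had a lower mean and TLR2, TLR7, TLR8 and ZBP1 higher means, all with overlapping groups.

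Of the genes of interferon signalling and its induced products, 18 of 22 measured had a lower mean in depleted cells and 4 a higher one. Of these 22 genes 2 were called lower, MX1 (log2 difference -3.01, limma adjusted p = 0.0379) and IRF9, a subunit of the factor that binds the response element (-1.11, 0.0386), and 0 were called higher. Over all tested genes 0.395% were called lower and 0.145% higher. The groups did not overlap for 15 of the 22 with the depleted arrays lower, against 10.1% of all genes, and for 1 with them higher. Without control replicate 1, MX1 still passed (adjusted p = 0.00522) and IRF9 did not (0.0656), and without any 1 depleted array, or without control replicate 3, neither passed (0.075 to 0.142). The median of the list was -1.07, and -0.71 without control replicate 1. IFIT2 and OAS1, both interferon-induced antiviral genes, had differences of -1.35 and -1.55 (adjusted p = 0.0625 and 0.0677). Control replicate 1 was the highest array for 16 of the 22 genes. Lists share the arrays, so their medians are not independent of each other, and no list was tested as a set.

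**Figure D4:**
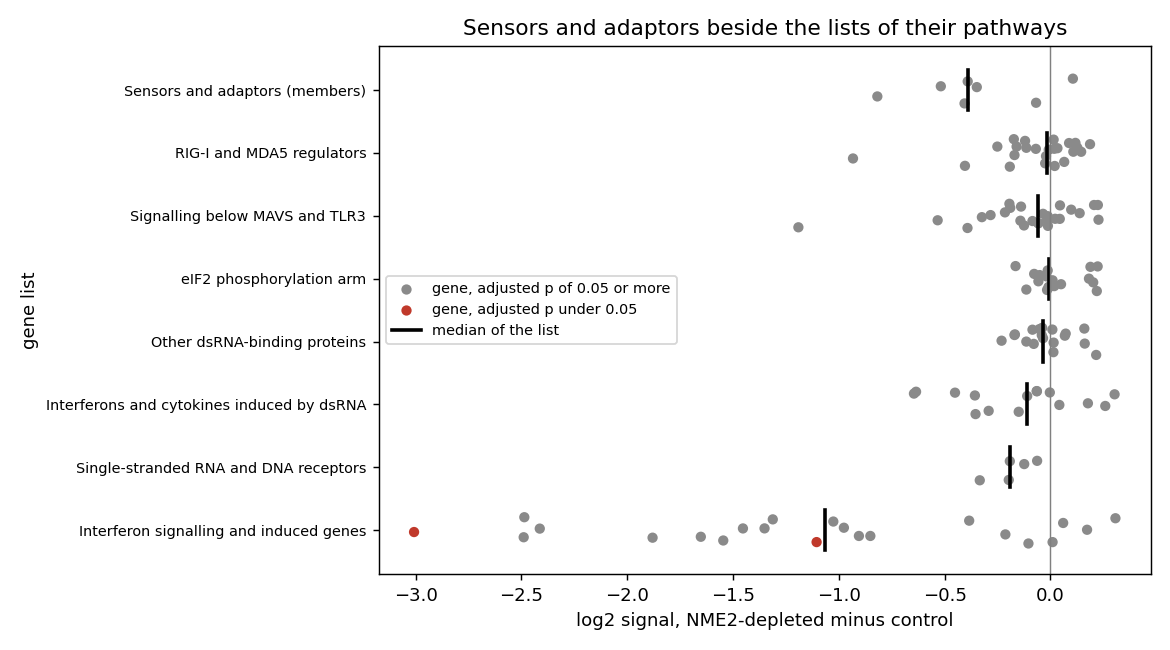
Log2 differences (depleted arrays minus controls) of the 7 measured sensors and adaptors and of 7 lists of related genes. Each point is a gene by its brightest tested probe set, red points passed an adjusted p of 0.05, and black bars are medians. The median of the sensors and adaptors is -0.39, between that of the signalling proteins below MAVS and TLR3 (-0.057) and that of interferon signalling and induced genes (-1.07).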

How the data were processed

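Each of the 6 RNA samples (A549 cells, 3 NME2-depleted and 3 control by title) was hybridised by the authors to 1 Affymetrix HG-U133 Plus 2.0 array. The deposited values are a linear intensity signal per probe set, made with GCOS 1.1.1 according to the submitters' processing notes. The arrays had been scaled to 1 mean (500.06 to 500.07 after trimming 2% at each end), which hides a shift shared by all transcripts. Probe-level scans and detection calls were not used here, and the number of arrays limits the precision.

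The 62 control probe sets of the manufacturer were removed, 0.327% of signals, which lay under 1, were raised to 1, and log2 values were used without further scaling. Genes were named from probe sets with 1 symbol in the platform annotation of 2016 (41091 probe sets, against 1801 with several symbols and 11721 with none), and the NME2 probe set, which also carries NME1-NME2, was the exception. The dimmer probe sets, with an average log2 signal below the median, were removed, and the other 27307 were fitted with limma 3.58.1 in R 4.3.3 (lmFit, eBayes with an intensity trend), with two-sided Benjamini-Hochberg adjusted p-values over all of them. Counts of genes use the brightest tested probe set of each. The smallest exact permutation p with 3 against 3 arrays is 0.1, so single values cannot pass 0.05 in that test. The fit was tested on simulated data. At most 0.297% of values were identical in any of the 15 pairs of arrays, so none was a duplicate.

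Named genes were the 8 members, NME2, up to 4 genes of lowest p in each list, IFNB1, IFNL1, CXCL10, CCL5 and the 5 genes most correlated with the member probe set of lowest p. PTPRC, CD14, CD53, CD3E, LAPTM5, KRT18, EPCAM, CDH1 and KRT8 were picked after values were seen. So were IFNE, IFNA1, IFNA2, IFNL2, TLR2, TLR4, TLR7, TLR8, TLR9, AIM2, CGAS and ZBP1. The members and lists were chosen with earlier results of these data known. Alternatives covered array scaling, an offset, the filter, shared probe sets, the variance model, the methods' t-test, a block for the replicate number, removal of each array in turn, and averaging of all probe sets of a gene.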

Additional observations from a re-analysis of the deposited data

How the results depend on the processing

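Across 16 tested member probe sets and the alternatives run, 273 of 277 differences kept the sign reported, and 1 passed an adjusted p of 0.05. That one was EIF2AK2 213294_at with the replicate block (-0.66, limma adjusted p = 0.0386). The labels do not say whether arrays with the same number were paired, and the main fit used no block. Correlations of same-numbered deviations were small, at 0.114, 0.08 and 0.07, although each array correlated best with its own number. With the replicate block 464 probe sets and 8 pathway genes were called, against 108 and 2 without it. Leaving out each array in turn gave a median member difference of -0.467 to -0.208 (-0.391 with all arrays), smallest in size without control replicate 1 and largest without NME2-depleted replicate 2, with 0 member genes called each time, 8 to 63 probe sets and 0 to 3 pathway genes.

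Other settings moved the counts. No filter on dim probe sets gave 30 probe sets and 0 pathway genes, the filter at the 75th percentile 192 and 1, leaving out shared probe sets 62 probe sets, and no intensity trend 0 and 0, where limma's unadjusted p was under 0.05 for 3130 probe sets. Pathway genes called were 4 with median centring, 0 with robust eBayes, 1 with array weights and 0 after averaging all probe sets of a gene. The methods' t-test called 1 member gene (ADAR), 3065 probe sets and 19 pathway genes unadjusted, and 0 probe sets and 0 pathway genes after Benjamini-Hochberg. Signs turned for small differences only: with 1 array left out, MAVS 226495_at spanned -0.139 to 0.041, MAVS 231829_at -0.105 to 0.352, PRKRA 237107_at -0.031 to 0.34, LY96 -0.418 to 0.055 and IRAK1 -0.107 to 0.007. NCK1 was -0.064 without shared probe sets, and after averaging all probe sets of a gene STRBP was 0.014 and IRAK1 0.022, while CYLD, MEX3C and DICER1 shrank to -0.06, 0.123 and -0.14. The causes of these changes were not tested. The main fit, and those with 1 array left out, assumed that both groups vary alike. The signal SDs of some members differed between the groups, as for IFIH1 219209_at (16.31 in NME2-depleted cells, 328.7 in control cells) and ADAR (27.61 and 974.6). Standard errors and intervals of such probe sets rest on that assumption.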
